A study of Homo sapiens with 6 samples.

Results

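The genes described here encode the aminoacyl-tRNA synthetases of the cytosol and of the mitochondria, with the scaffold proteins of the cytosolic enzymes. They were chosen by name: 38 of the 60483 gene rows of the count files, made up of 19 cytosolic synthetase genes, 16 mitochondrial synthetase genes and 3 scaffold genes. All 38 had enough reads to be tested. The expression of these genes was compared between control and FTO-knockdown 253J cells, in order to learn how the transcripts of the charging enzymes of each compartment stood after the knockdown. 253J is an established human bladder cancer cell line, and FTO is an enzyme that removes m6A, a methyl mark, from RNA. The RNA-seq data held 3 control libraries (replicates 1, 2 and 3) and 3 FTO-knockdown libraries (replicates 4, 5 and 6) from cells without any other labelled treatment. The sample titles read siFTO for the knockdown cells and control for the others, but the methods of the study describe shRNA. No source used here says whether the replicates were separate cultures, so a p-value sets the difference against the spread of these libraries alone, and that spread may be technical.

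An aminoacyl-tRNA synthetase joins an amino acid to its tRNA, and so supplies the ribosome with charged tRNA. Cytosol and mitochondria mostly keep separate enzymes, and the mitochondrial ones are encoded in the nucleus and imported. GARS1 and KARS1 each serve both compartments from a single gene. In human cells several cytosolic synthetases are held together in the multisynthetase complex by the scaffold proteins AIMP1, AIMP2 and EEF1E1. Several cytosolic synthetase genes are known targets of ATF4, a transcription factor that acts when amino acids run short and binds the C/EBP-ATF response element.

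Total counts lay between 10991789 and 19891269 in the control libraries and between 13162731 and 15709975 in the FTO-knockdown libraries. Levels are given as CPM, the standard scaling of counts to a fixed number of reads per library, here with TMM factors, which sets each level relative to the bulk of the other genes. A gene was called lower or higher when its edgeR adjusted p, corrected over 14965 genes tested, was under 0.05. The median log2 fold change of all genes tested was 0.0057. FTO itself stood at 31.8, 21.4 and 31.2 CPM in the control libraries and at 20.2, 20.7 and 15.7 CPM in the FTO-knockdown libraries. Its level was lower by 0.57 on the log2 scale (SE 0.16, adjusted p = 0.0209), a call that was lost without control replicate 1 (adjusted p = 0.107), without control replicate 3 (0.113) or with library totals alone (0.0576).

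FTO-knockdown replicates 4 and 5 stood apart from the other libraries. The summed level of 12 mesenchymal and fibroblast markers was 2034 and 2506 CPM in them, against 36.9 CPM in replicate 6 and 23.9 to 25.5 CPM in the controls. VIM stood at 635.5 and 730.4 CPM in these libraries and at 0.292 CPM in replicate 6, while COL3A1 and THY1 were near 0 in every library. The summed level of 8 leukocyte markers was 81.6 and 104.5 CPM in replicates 4 and 5, 6.05 CPM in replicate 6 and 3.75 to 4.93 CPM in the controls, with PTPRC and CD3E at or near 0. Epithelial markers were abundant in all libraries, but 7 of 11 urothelial markers, the uroplakins, KRT5, GATA3 and TP63, stayed below 1 CPM in each. The other 4 were present, with FOXA1 at 77.0 to 115.0 CPM, PPARG at 53.8 to 75.0 CPM, KRT13 at 7.80 to 13.1 CPM and KRT20 at 3.88 to 27.6 CPM over the 6 libraries. Of 7 intestinal markers, all were present in every library. Whether the cells are 253J was not tested. The part of the mesenchymal transcripts in the results was not tested. Counts of called genes without replicates 4 and 5 are given beside those from all libraries, whereas counts of non-overlapping groups and of pairs rest on all 6 libraries.

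Some intestinal and urothelial markers also differed between the groups. For CDX2, MUC2, REG4 and KRT20, replicate 6 lay outside the control range as well. CDX2, an intestinal transcription factor, was at 244.7, 282.8 and 247.8 CPM in the controls and at 139.3, 142.3 and 169.1 CPM in the FTO-knockdown libraries (log2 fold change -0.78, adjusted p = 0.000832), and LGALS4 was lower by 0.28 (adjusted p = 0.0485). MUC2, an intestinal mucin, had means of 5.38 and 27.5 CPM in the control and FTO-knockdown libraries, REG4 34.8 and 181.4 CPM, and KRT20 4.24 and 22.7 CPM. Each of these 3 was higher, with log2 fold changes of 2.35, 2.38 and 2.43 and no overlap of the groups, and FOXA1 was lower by 0.31 (adjusted p = 0.0492). In replicate 6, LGALS4 (321.0 CPM) and FOXA1 (92.8 CPM) lay within the control ranges of 316.9 to 369.2 and 89.1 to 115.0 CPM. CDX2, MUC2, REG4 and KRT20 moved in the same libraries as the synthetases. The part of all these markers in the results was not tested.

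The promoters are shown first, because members that moved together can be read beside the letters around their starts. Windows from 250 bases before to 50 bases after the RefSeq gene start (GRCh38.p14) were held for 33 members and were searched on both strands for TGATGNAA (TTNCATCA on the other strand), the core of the C/EBP-ATF response element. The motif was found in 7 of 16 cytosolic, 1 of 14 mitochondrial and 0 of 3 scaffold promoters, and in 1270 of the 35116 windows of all genes (3.62%). Each window of 28 bases below is written along the strand of its gene, with the motif in capitals and 10 bases on either side. No window was held for LARS1, VARS1, YARS1, AARS2 and VARS2.
CARS1, chr11:3057408-3057435, minus strand: ggggcggcggTTGCATCAgattctagga
GARS1, chr7:30594835-30594862, plus strand: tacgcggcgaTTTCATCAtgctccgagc
AARS1, chr16:70289676-70289703, minus strand: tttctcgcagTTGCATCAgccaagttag
MARS1, chr12:57488054-57488081, plus strand: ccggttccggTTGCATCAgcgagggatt
TARS1, chr5:33440957-33440984, plus strand: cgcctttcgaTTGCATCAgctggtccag
NARS1, chr18:57621805-57621832, minus strand: ctacgctctcTGATGCAAcgccggaatc
IARS1, chr9:92293693-92293720, minus strand: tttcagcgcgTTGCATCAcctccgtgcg
YARS2, chr12:32756077-32756104, minus strand: tccacactgcTGATGGAAaaattaagtt

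In CARS1, MARS1 and TARS1 the motif lay at the gene start, from position -2 to 6, from -4 to 4 and from 3 to 10. It lay within 33 bases before the start in GARS1 and IARS1, at 15 to 22 after it in NARS1, and farther upstream in AARS1 (-187 to -180) and YARS2 (-197 to -190). Of the 10 cytosolic genes that were lower in the FTO-knockdown cells and had a window, 6 held the motif, against 1 of 6 cytosolic genes that were not lower, which was IARS1. Shares with the motif were also taken over the tested genes that had a window and an unshared symbol. They were 3.67% of 1905 lower genes, 3.08% of 2335 higher genes and 2.21% of 6647 genes not called. These shares and the counts of members are per gene, whereas the share over all windows above is per window. SARS1, EPRS1, QARS1 and WARS1, which were lower, had no match in their windows. A match is a description of letters, and binding was not measured.

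The transcripts of the cytosolic synthetases were lower after the FTO knockdown than in the control cells, while few of the mitochondrial synthetases passed the test in either direction. Of 19 cytosolic genes, 12 were lower, 1 (RARS1) was higher and 6 were not called, and the median log2 fold change was -0.36. In the same fit, 17.9% of all genes tested were lower and 19.5% were higher. With library totals alone in place of TMM, 1787 genes were lower and 4088 were higher, and with a correction for gene length and GC content 2975 and 2111 (2684 and 2913 in the TMM fit). The cytosolic count of lower genes was 10 and 13 in these fits. Of 16 mitochondrial genes, 3 were lower, 1 was higher and 12 were not called, with a median of -0.11, which was 0.015 with library totals alone. None of the 3 scaffold genes was called by edgeR in either direction, and their median was 0.01, or -0.018 with upper-quartile factors. The count of scaffold genes was also 0 at an unadjusted p under 0.05, with DESeq2 and with limma voom.

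The 6 values of a gene separated the groups in most cytosolic cases. In 14 of the 19 cytosolic genes each FTO-knockdown library lay below each control library, in 1 each lay above, and in 4 the groups overlapped. For the mitochondrial genes these counts were 6, 1 and 9, and all 3 scaffold genes overlapped. Over all genes tested, 25.6% lay wholly below and 25.8% wholly above. The share below among the mitochondrial genes was thus nearer to that of all genes than the share among the cytosolic genes was.

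**Figure D1:**
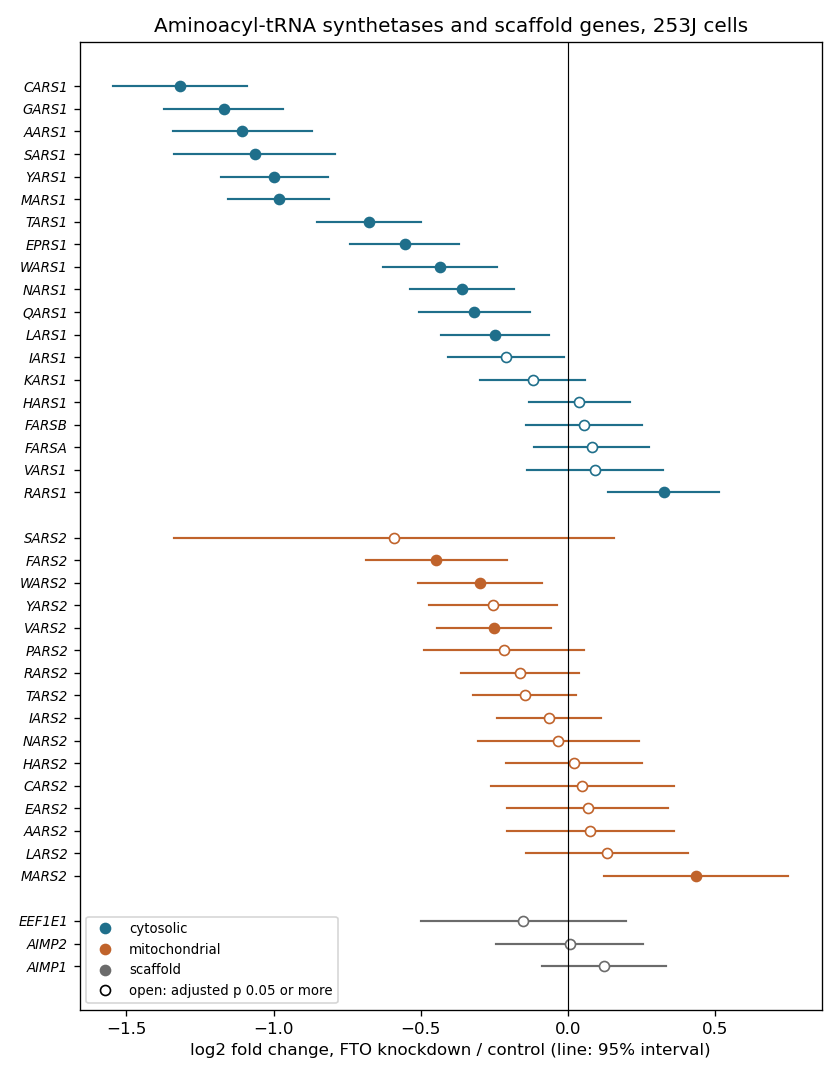
Log2 fold change of each of the 38 genes between 3 FTO-knockdown and 3 control libraries (x axis), with its 95% interval as a line and open points for genes with an adjusted p of 0.05 or more. The cytosolic genes reach from -1.32 (CARS1) to 0.33 (RARS1), whereas the mitochondrial genes lie between -0.59 (SARS2) and 0.44 (MARS2).

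Summed over the 19 cytosolic genes, the level was 6612, 6766 and 6204 CPM in the controls and 4463, 4406 and 4378 CPM in the FTO-knockdown libraries. The groups were well separated, and the FTO-knockdown mean (4415 ± 43.2 CPM, SD, n = 3) was 0.676 times the control mean (6527 ± 290.3 CPM, SD, n = 3). The 16 mitochondrial genes together gave 854.3, 822.2 and 895.3 CPM in the controls and 826.5, 823.1 and 832.1 CPM in the FTO-knockdown libraries. Here the groups overlapped and the ratio of the means was 0.965. For the scaffold genes the ratio was 1.02. In bulk RNA, fewer cells with a transcript and less of it per cell cannot be told apart.

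The falls of the cytosolic genes were alike in the 3 FTO-knockdown libraries. The median deviation from the control mean over the 19 genes was -0.38, -0.38 and -0.33 on the log2 scale in replicates 4, 5 and 6. Replicate 6 lacked the high mesenchymal transcripts, and their part in these falls was not tested. For the mitochondrial genes it was -0.10, -0.16 and -0.14. When replicates 4 and 5 were left out, 9 cytosolic genes were still called lower, and these were 9 of the 12 called before. In that fit 5.89% of all genes were lower and 6.17% were higher, the cytosolic median was -0.33, and no mitochondrial gene was called. That fit holds a lone FTO-knockdown library, which is assumed to vary like the controls.

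**Figure D2:**
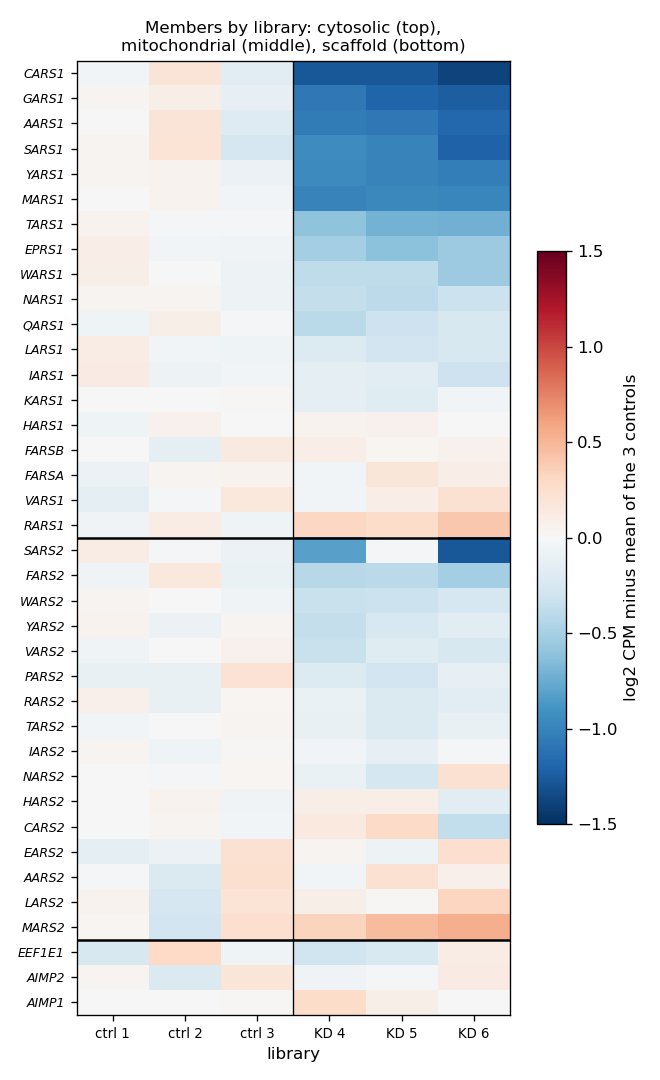
Log2 CPM of each gene in each of the 6 libraries minus the mean of the 3 controls (colour scale), with cytosolic genes at the top, mitochondrial genes in the middle and scaffold genes at the bottom. The lowest cytosolic genes show the same blue in replicates 4, 5 and 6, for example CARS1 at -1.27, -1.27 and -1.39.

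CARS1, the cysteinyl-tRNA synthetase of the cytosol (ENSG00000110619, GENCODE 29 on GRCh38, chr11:3000922-3057613), had the largest fall of the 38 genes. Its level was 214.8, 252.0 and 198.0 CPM in the controls and 91.5, 91.1 and 84.1 CPM in the FTO-knockdown libraries. The lowest control thus exceeded the highest FTO-knockdown library by a wide margin. The log2 fold change was -1.32 (SE 0.10, adjusted p = 7.06e-05), and the mean was 0.401 times that of the controls. GARS1, which charges glycine tRNA in both compartments (chr7:30594681-30634033), stood at 672.6, 694.6 and 601.1 CPM in the controls and at 311.9, 283.8 and 279.0 CPM after the knockdown. Its groups did not overlap, and its log2 fold change was -1.17 (SE 0.09, adjusted p = 7.06e-05). Counts per gene do not separate its cytosolic from its mitochondrial product.

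AARS1, the alanyl enzyme, measured 437.6, 504.8 and 386.3 CPM in the controls and 212.3, 209.7 and 195.3 CPM in the FTO-knockdown libraries. Each FTO-knockdown value was well under the lowest control, with a log2 fold change of -1.11 (SE 0.11, adjusted p = 0.000224). SARS1, which charges serine tRNA and also supplies the seryl-tRNA from which selenocysteine is made, measured 631.1, 706.5 and 513.8 CPM against 316.9, 304.8 and 263.7 CPM. Its controls were the most widely spread among the large falls (SD 97.1 CPM, n = 3), yet all exceeded the FTO-knockdown libraries, with a log2 fold change of -1.06 (SE 0.12, adjusted p = 0.000546). YARS1, the tyrosyl enzyme, fell from 565.8, 567.2 and 515.6 CPM to 283.0, 274.4 and 268.1 CPM. The FTO-knockdown mean was 0.501 times the control mean (SE 0.08 on the log2 scale, adjusted p = 9.24e-05).

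TARS1, the threonyl enzyme, measured 413.3, 395.3 and 391.7 CPM in the controls and 263.5, 245.0 and 243.0 CPM after the knockdown, a log2 fold change of -0.68 (SE 0.08, adjusted p = 0.000618). WARS1, the tryptophanyl enzyme, is known to be induced by interferon gamma as well. It was 242.5, 227.6 and 217.4 CPM in the controls and 175.5, 176.4 and 156.4 CPM in the FTO-knockdown libraries. The groups did not overlap, and the log2 fold change was -0.44 (SE 0.09, adjusted p = 0.00442). NARS1, the asparaginyl enzyme, was lower by 0.36 on the log2 scale (SE 0.08, adjusted p = 0.00676), a call that was lost without FTO-knockdown replicates 4 and 5 (adjusted p = 0.15).

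The remaining cytosolic enzymes outside the multisynthetase complex did not pass the test. FARSA and FARSB, the subunits of phenylalanyl-tRNA synthetase, had log2 fold changes of 0.08 and 0.06. With the length and GC correction FARSA was called higher (0.30, adjusted p = 0.0175) and the value of FARSB was -0.023. HARS1, the histidyl enzyme, had 0.04 (-0.13 with that correction), and VARS1, the valyl enzyme, 0.09, and the libraries of the groups overlapped in all 4 genes. The 95% interval of the log2 fold change was -0.13 to 0.21 for HARS1 and -0.14 to 0.32 for VARS1, so falls of the size of those of CARS1 or TARS1 lay outside them. Of the 12 free cytosolic genes, 8 were lower, 0 were higher and 4 were not called, with a median log2 fold change of -0.56. Without FTO-knockdown replicates 4 and 5, 7 of the 12 were lower.

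**Figure D3:**
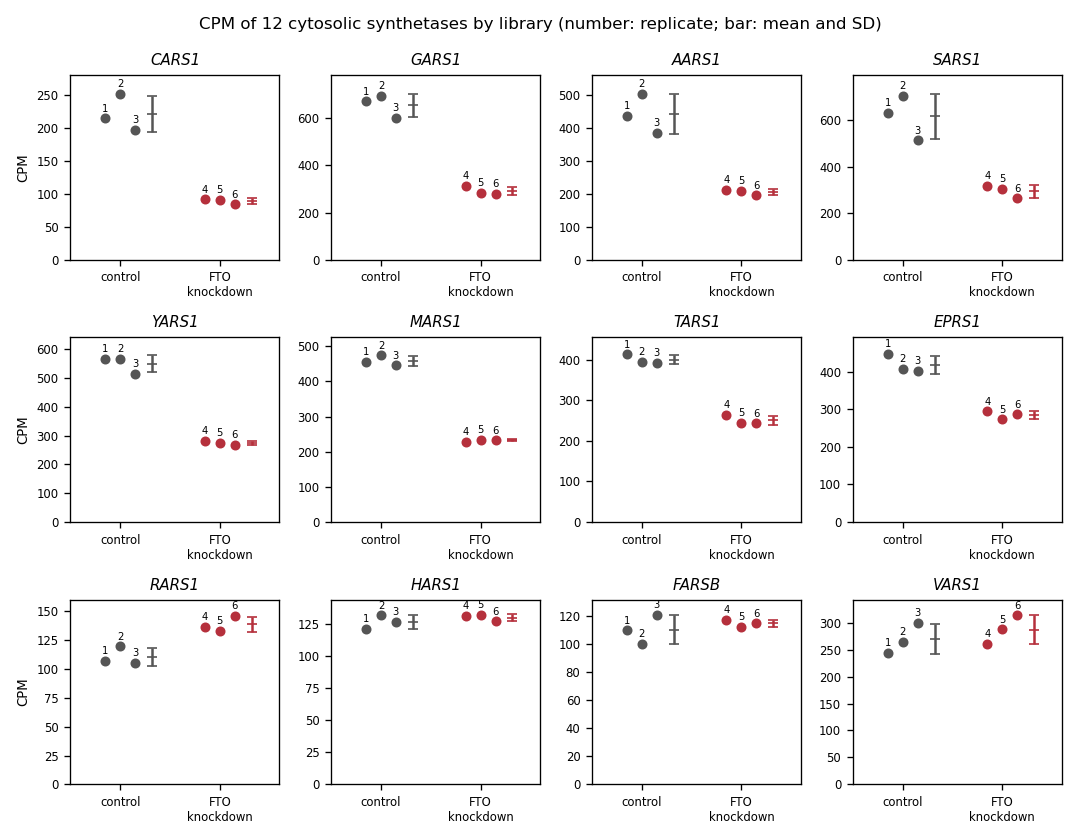
CPM (y axis, from 0) of 12 cytosolic synthetases in each library, numbered by replicate, with the mean and SD (n = 3) beside the points. In the first 8 panels each FTO-knockdown library lies below each control, RARS1 lies above with 133.2 to 146.2 CPM against 105.4 to 119.7 CPM, and HARS1, FARSB and VARS1 overlap.

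Members of the multisynthetase complex did not move as 1 group. MARS1, the methionyl enzyme, measured 455.5, 474.3 and 445.1 CPM in the controls and 228.9, 234.5 and 232.3 CPM in the FTO-knockdown libraries. The spread within each group was small beside the gap between them, and the log2 fold change was -0.98 (SE 0.08, adjusted p = 7.65e-05). EPRS1, which carries the glutamyl and the prolyl enzyme in 1 protein, measured 446.7, 406.7 and 401.4 CPM against 294.5, 273.6 and 286.3 CPM. Its log2 fold change was -0.55 (SE 0.08, adjusted p = 0.00137). RARS1, the arginyl enzyme (chr5:168486445-168519299), was the single cytosolic gene that rose, from 106.9, 119.7 and 105.4 CPM to 136.8, 133.2 and 146.2 CPM.

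The rise of RARS1 was 0.33 on the log2 scale (SE 0.09, adjusted p = 0.0142), with no overlap of the groups. It missed the threshold without control replicate 1 (adjusted p = 0.0835), without control replicate 3 (0.0733) or without FTO-knockdown replicate 4 (0.0567). The same held without FTO-knockdown replicates 4 and 5 together (0.0733) and with the length and GC correction (0.0652). QARS1, the glutaminyl enzyme, was lower by 0.32 (SE 0.09, adjusted p = 0.0158), and LARS1, the leucyl enzyme, by 0.25 (SE 0.08, adjusted p = 0.0391). The call on QARS1 was lost without control replicate 3 (adjusted p = 0.0514) or FTO-knockdown replicate 4 (0.0848), without FTO-knockdown replicates 4 and 5 (0.289) and with library totals alone (0.08). That on LARS1 was lost without any 1 library other than FTO-knockdown replicate 6 (adjusted p between 0.0599 and 0.128), without FTO-knockdown replicates 4 and 5 (0.288), without a filter (0.0901) and with library totals alone (0.293). IARS1, the isoleucyl enzyme, and KARS1, the lysyl enzyme of both compartments, had log2 fold changes of -0.21 (adjusted p = 0.0872) and -0.12 (adjusted p = 0.259). In both the FTO-knockdown libraries lay below the controls, and IARS1 was called lower with the length and GC correction (log2 fold change -0.44, adjusted p = 0.00288).

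Of the 7 complex enzymes, 4 were lower, 1 was higher and 2 were not called, with a median of -0.25. Without FTO-knockdown replicates 4 and 5, 2 were lower and 0 were higher. None of the scaffold genes passed the test. AIMP1 measured 44.7, 44.5 and 45.2 CPM in the controls and 54.0, 47.5 and 44.9 CPM in the FTO-knockdown libraries, a log2 fold change of 0.12 (adjusted p = 0.328). AIMP2 measured 51.0, 42.7 and 56.0 CPM against 47.8, 48.6 and 54.0 CPM, with 0.01 (adjusted p = 0.97). EEF1E1 measured 20.4, 29.7 and 23.1 CPM against 19.5, 20.6 and 26.0 CPM, with -0.15 (adjusted p = 0.47). The groups overlapped in all 3. EIF2AK1 covers 28.9% of the exonic bases of AIMP2, and EEF1E1-BLOC1S5 18.7% of those of EEF1E1. Some reads of AIMP2 and EEF1E1 may therefore have been left out or shared in counting.

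By the structural class of the catalytic domain, 7 of 10 cytosolic class I enzymes were lower, against 5 of 9 of class II (5 and 4 without FTO-knockdown replicates 4 and 5). The medians were -0.38 and -0.36. CARS1, YARS1 and MARS1 belong to class I, and GARS1, AARS1 and SARS1 to class II. The largest falls thus came from both.

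Among the mitochondrial enzymes, FARS2, which charges phenylalanine tRNA, fell from 25.2, 29.2 and 24.4 CPM to 19.6, 19.8 and 18.4 CPM. Its groups did not overlap and its log2 fold change was -0.45 (SE 0.11, adjusted p = 0.0102), a call lost without FTO-knockdown replicates 4 and 5 (adjusted p = 0.0761). WARS2, the tryptophanyl enzyme, measured 26.2, 25.7 and 24.7 CPM against 20.3, 20.5 and 21.5 CPM (log2 fold change -0.30, adjusted p = 0.0321). VARS2, the valyl enzyme, measured 55.1, 56.7 and 59.5 CPM against 45.3, 50.2 and 48.5 CPM (log2 fold change -0.25, adjusted p = 0.0446). Both calls were close to the threshold. That on WARS2 was lost without control replicate 1 or FTO-knockdown replicate 4 or 5 (adjusted p between 0.0672 and 0.11), and that on VARS2 without any 1 of the 6 libraries (between 0.0523 and 0.161). DESeq2 called neither (adjusted p = 0.0698 for WARS2 and 0.0579 for VARS2), and neither was called without FTO-knockdown replicates 4 and 5 (0.341 and 0.307), without a filter or with library totals alone. GTF2H4 covers 22.0% of the exonic bases of VARS2.

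MARS2, the methionyl enzyme of mitochondria (chr2:197705369-197708387), was the mitochondrial gene that rose. It stood at 17.9, 14.3 and 20.8 CPM in the controls and at 22.1, 24.2 and 25.5 CPM in the FTO-knockdown libraries. The groups did not overlap, but the nearest values lay close to each other. The log2 fold change was 0.44 (SE 0.14, adjusted p = 0.034), and the call was lost without any 1 library other than control replicate 3 (adjusted p between 0.0553 and 0.115) and without FTO-knockdown replicates 4 and 5 together (0.0918). MARS1 and MARS2 thus had calls in opposite directions.

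The other 12 mitochondrial genes were not called. Their log2 fold changes ran from -0.59 to 0.13. SARS2, the seryl enzyme, was at the low end, but its level was 1.77, 1.61 and 1.55 CPM in the controls and 0.92, 1.62 and 0.66 CPM in the FTO-knockdown libraries, from 9 to 30 reads a library. Other annotated genes, chiefly AC011455.2, cover 57.0% of its exonic bases. YARS2, the tyrosyl enzyme, measured 32.6, 29.7 and 32.3 CPM against 24.5, 26.7 and 28.1 CPM, a log2 fold change of -0.25 (adjusted p = 0.0641). The groups did not overlap, nor did they for PARS2 (-0.22), which charges proline tRNA, or TARS2 (-0.15), the threonyl enzyme.

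The prolyl, arginyl, threonyl, isoleucyl and asparaginyl enzymes of mitochondria PARS2, RARS2, TARS2, IARS2 and NARS2 had log2 fold changes between -0.22 and -0.03. HARS2, CARS2, EARS2, AARS2 and LARS2, which charge the tRNAs of histidine, cysteine, glutamate, alanine and leucine, lay between 0.02 and 0.13. CARS2, the mitochondrial partner of the gene with the largest fall, measured 107.0, 109.8 and 104.1 CPM in the controls and 118.5, 130.4 and 83.1 CPM in the FTO-knockdown libraries. Replicate 6 was thus below all controls and replicates 4 and 5 above them. AARS2 measured 34.6, 30.5 and 42.0 CPM against 34.4, 41.6 and 37.2 CPM, and EARS2 56.1, 58.5 and 73.0 CPM against 64.1, 59.0 and 74.0 CPM. Neither shows the separation seen for AARS1 or EPRS1.

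Partners that charge the same amino acid in the 2 compartments were then set against each other inside each library, since such a ratio does not depend on scaling between libraries. For 17 pairs the log2 ratio of cytosolic to mitochondrial CPM was compared by a two-sided exact permutation test, which cannot give less than p = 0.1 with 3 libraries a group. The smallest value after adjustment over the pairs was 0.1214. No pair could therefore pass the threshold, and the ratios are given with their overlap. In 10 pairs the FTO-knockdown ratios all lay below those of the controls, in 4 all lay above, and in 3 they overlapped. No such share was computed for ratios of other gene pairs. Of all single genes tested, 25.6% lay wholly below and 25.8% wholly above, so the pair counts are a description only. The median difference over the pairs was -0.35.

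The methionyl pair differed most. The log2 ratio of MARS1 to MARS2 was 4.67, 5.05 and 4.42 in the controls and 3.37, 3.27 and 3.18 in the FTO-knockdown libraries, a difference of -1.44. The ratio of CARS1 to CARS2 was 1.01, 1.20 and 0.93 in the controls and -0.37, -0.52 and 0.02 in the FTO-knockdown libraries, a difference of -1.33. In reads, CARS1 thus went from above its partner to below it in FTO-knockdown replicates 4 and 5 and about level with it in replicate 6. The ratio of AARS1 to AARS2 differed by -1.19, that of YARS1 to YARS2 by -0.74, that of EPRS1 to EARS2 by -0.63 and that of TARS1 to TARS2 by -0.53.

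The opposite direction was seen in pairs whose cytosolic enzyme was higher or not called. The ratio of RARS1 to RARS2 was 0.87, 1.23 and 0.90 in the controls and 1.41, 1.48 and 1.57 in the FTO-knockdown libraries, a difference of 0.49. FARSA and FARSB against FARS2 differed by 0.52 and 0.50, with the fall on the side of FARS2, and VARS1 against VARS2 by 0.35. These pairs share FARS2, as EPRS1 is shared by its pairs with EARS2 and PARS2, and so they are not independent. HARS1 and HARS2 lie head to head on chromosome 5, with 84 bases between their RefSeq starts, and overlap in their exons. The ratio of HARS1 to HARS2 differed by 0.03, with overlap.

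**Figure D4:**
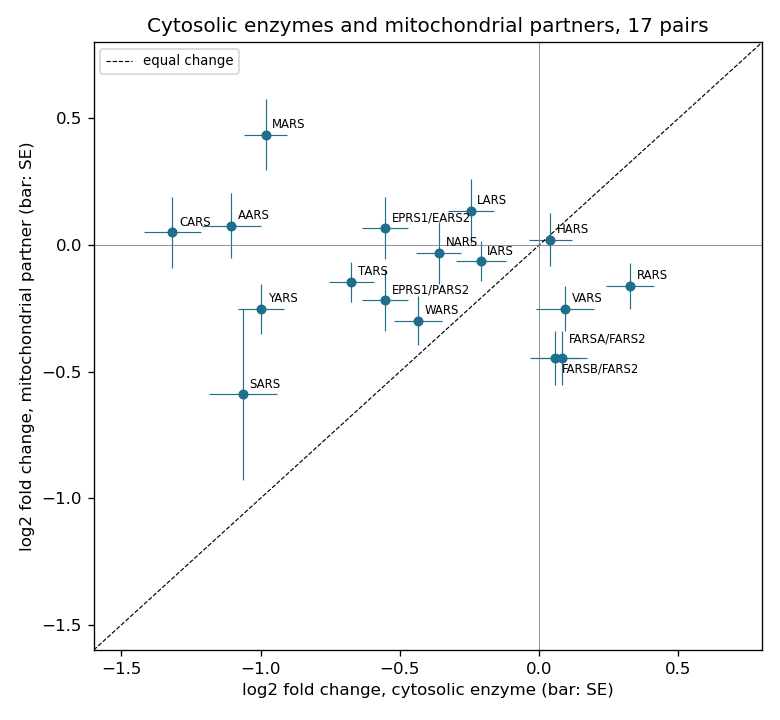
Log2 fold change of the mitochondrial partner (y axis) against that of the cytosolic enzyme (x axis) for 17 pairs, labelled by gene, with SE as bars. MARS1 and CARS1 lie far to the left at -0.98 and -1.32, while their partners lie at 0.44 and 0.05, and the histidyl pair lies near 0 on both axes.

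To compare levels between genes, CPM was divided by the exonic length in kb, which joins the exons of all annotated transcripts of a gene. A gene with many annotated transcripts can thus be given too low a level per kb. In the controls the cytosolic genes had a median of 66.9 CPM per kb (16.2 to 160.9), the mitochondrial genes 9.81 (0.508 to 44.1) and the scaffold genes 13.5 (11.6 to 27.1). The 12 highest of the 38 genes were all cytosolic. SARS1 (160.9 ± 25.3 CPM per kb, SD, n = 3) and GARS1 (158.0 ± 11.8) led and did not differ beyond their spread, and the same held for AARS1 (98.5 ± 13.2) and KARS1 (96.7 ± 0.785) after them. CARS1, with the largest fall, was 20th at 22.1 ± 2.75 CPM per kb, on an exonic length of 10.0 kb (4.08 kb for TARS2 and 2.55 kb for RARS2). Before length scaling the control means were 221.6 CPM for CARS1, 93.5 CPM for TARS2 and 55.4 CPM for RARS2. Per kb, CARS1 shared its place with TARS2 (22.9 ± 0.742) and RARS2 (21.8 ± 1.48), whose levels were within that spread.

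After the knockdown KARS1 led with 89.0 ± 4.74 CPM per kb, followed by SARS1 (76.9 ± 7.28), GARS1 (70.2 ± 4.27) and NARS1 (67.7 ± 1.58). SARS1 and GARS1 were within their spread of each other. AARS1 was then at 45.7 ± 2.04 CPM per kb and CARS1 at 8.86 ± 0.416. The cytosolic median was 45.7 CPM per kb in the FTO-knockdown cells, and the mitochondrial median was 9.56. IARS2, the isoleucyl enzyme, was the highest of the mitochondrial genes in the controls with 44.1 ± 1.71 CPM per kb, level with VARS1 (44.3 ± 4.64). Its level after the knockdown was 42.2 ± 1.63 CPM per kb.

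**Figure D5:**
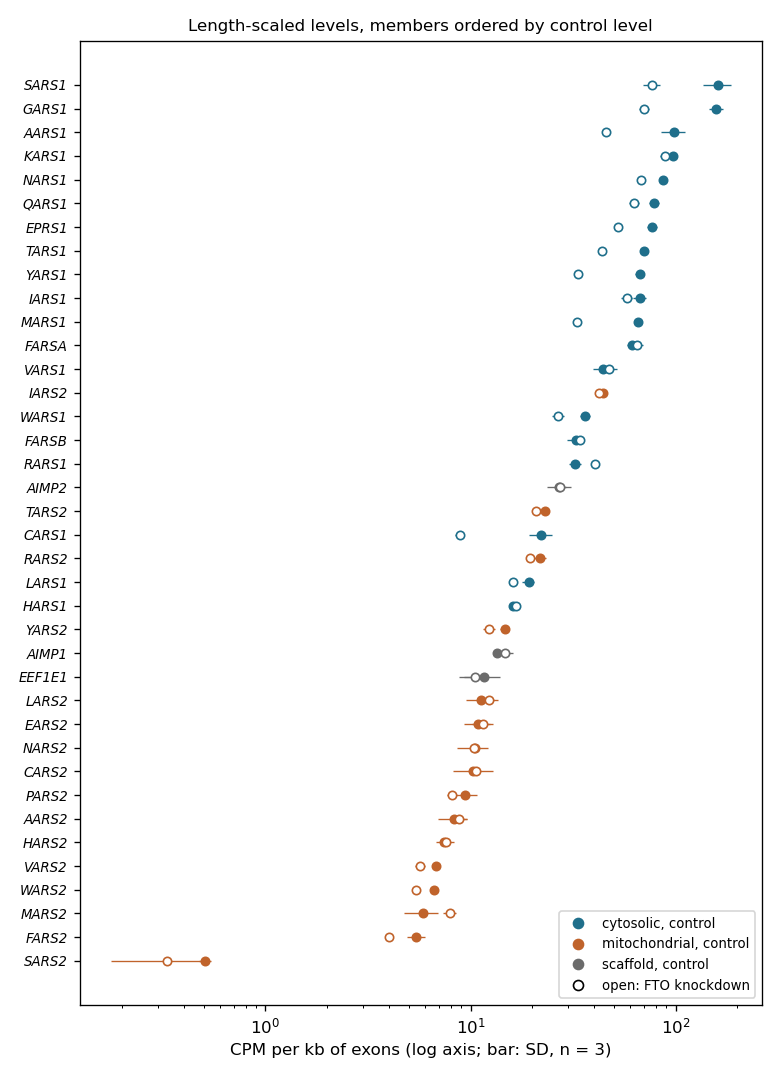
Length-scaled level of the 38 genes (x axis, CPM per kb of exons, log axis) in control (filled) and FTO-knockdown (open) cells, with SD (n = 3) as bars and genes ordered by control level. SARS1 and GARS1 drop from 160.9 and 158.0 to 76.9 and 70.2 CPM per kb, while KARS1 goes from 96.7 to 89.0 and IARS2 from 44.1 to 42.2.

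Other genes of tRNA charging were read from the same fit, in which 17.9% of all genes tested were lower and 19.5% higher. The lists are short, and each count is given again without FTO-knockdown replicates 4 and 5, where these shares were 5.89% and 6.17%. Of 7 helpers of charging and decoding in mitochondria, 3 were lower and 0 were higher, and none was called without replicates 4 and 5. They were TUFM, the mitochondrial elongation factor that carries charged tRNA (-0.45), TSFM, its exchange factor (-0.40), and GATB, a subunit of the enzyme that makes glutaminyl-tRNA there (-0.37). Of 5 tested genes of tRNA delivery and export, 4 were lower and 0 were higher (2 and 0 without replicates 4 and 5). EEF1B2, an exchange factor of the cytosolic elongation factor, was lower by 0.67 and EEF1A1, that factor itself, by 0.61 on the log2 scale. EEF1G was listed at 0 in every library and did not enter the fit. Whether its reads were lost in counting was not tested.

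Of 6 genes of proofreading and selenocysteine charging, 2 were lower, DTD1 (-0.54), which removes D-amino acids from tRNA, and PSTK (-0.48), which phosphorylates the seryl-tRNA used for selenocysteine, and neither was called without replicates 4 and 5. Of 12 genes of tRNA maturation, 2 were lower and 2 were higher, which is near the share of all genes in both directions, and 1 and 0 without replicates 4 and 5. Of 5 genes that sense uncharged tRNA, 1 was lower and 3 were higher (1 and 0 without replicates 4 and 5). This list takes in the pathway around the sensing kinase and is not limited to sensors. EIF2AK4, the kinase that uncharged tRNA activates, rose by 0.31 (adjusted p = 0.0158) and its partner GCN1 by 0.32 (0.0216). EIF2S1, the initiation factor subunit that EIF2AK4 phosphorylates, rose by 0.46 (0.0029).

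ATF4, whose translation follows that kinase, was the gene of this list that was lower. It stood at 1197, 1463 and 1200 CPM in the controls and at 507.4, 485.3 and 454.3 CPM in the FTO-knockdown libraries. The groups were far apart, with a log2 fold change of -1.42 (SE 0.10, adjusted p = 5.56e-05). A list of 16 other genes of the ATF4 amino acid response held 12 lower genes, 0 higher genes and 4 that were not called, with a median of -0.84. Without FTO-knockdown replicates 4 and 5 it held 15 lower and 0 higher genes. CHAC1, which breaks down glutathione, was at -2.94, and ASNS, the asparagine synthetase, at -2.73. The falls of CARS1 (-1.32), GARS1 (-1.17) and AARS1 (-1.11) were smaller than these but larger than the median of the list. Of 10 tested interferon-stimulated genes, a list set beside WARS1, 6 were higher and 1 was lower (4 and 0 without FTO-knockdown replicates 4 and 5). IFI27 was at 1.59 and MX1 at -0.68, while WARS1 was lower. IFIT2 and IFIT3, which are among the 6, moved with the mesenchymal transcripts. IFIT2 was at 10.5 and 10.8 CPM in FTO-knockdown replicates 4 and 5 and 1.09 CPM in replicate 6, against 0.67 to 0.982 CPM in the controls. IFIT3 was at 8.91, 8.27 and 1.75 CPM, against 1.12 to 1.34 CPM, and GBP1, which was not tested, at 3.54, 3.36 and 0.219 CPM.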

How the data were processed

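RNA-seq libraries of 253J cells, 3 control and 3 FTO-knockdown, were grouped by their labels. The authors deposited counts of reads per gene, 1 table per sample, not normalized. Per the labels' processing notes, TopHat2 2.0.11 and HTSeq were used on hg19 and GRCh37. For HTSeq, no version, annotation or strand option is given in the sources used here, so where genes overlap, also in antisense, their reads may be mixed. The 37 genes of the mitochondrial genome were at 0 in all libraries. Total counts ran from 10991789 to 19891269. At this depth members other than SARS2 had at least 192 reads in each library.

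In R 4.3.3, edgeR 4.0.16 removed low genes (filterByExpr, minimum count 10, minimum total 15), applied TMM scaling and ran its quasi-likelihood test with group as the term. Tests were two-sided, with Benjamini-Hochberg adjustment over 14965 genes and a threshold of 0.05. The SE is the log2 fold change divided by the square root of F, and intervals are 95%. The fit was tested on simulated data. The simulation drew the libraries of a group from a common mean per gene. Differences between FTO-knockdown replicates such as those in the mesenchymal markers were therefore not part of it. Pair ratios used a prior count of 0.5. Symbols matched 56321 of 60483 IDs (93.1%). Gene coordinates, lengths and overlaps came from GENCODE 29 on GRCh38 by gene ID, so the counting build is not settled, and promoter windows came from RefSeq (GRCh38.p14).

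The members, lists and alternatives were chosen with earlier results of these data known. Values per library were given for the 8 largest falls and up to 4 rises among called cytosolic genes, up to 4 called mitochondrial genes in each direction, all scaffold genes, WARS1 and partners, and for up to 2 genes in each direction of each context list a fold change. A few further genes are named and were chosen after their values were seen. Alternatives were 3 other scalings, 2 other filters, DESeq2 1.42.0, limma 3.58.1 (voom), leaving out libraries, and a length and GC correction (mgcv 1.9.3). Protein sequences were not used here.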

Additional observations from a re-analysis of the deposited data

How the results depend on the processing

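Over 15 alternatives, 9 cytosolic genes (AARS1, CARS1, EPRS1, GARS1, MARS1, SARS1, TARS1, WARS1 and YARS1) stayed lower in each, and the cytosolic count of lower genes lay between 9 and 13. No paired analysis was possible because the groups share no replicate number. Where a call changed, the cause was not tested. With library totals alone, the median of all genes moved to 0.126, and 1787 genes were lower and 4088 higher. The medians were then -0.24 (cytosolic), 0.015 (mitochondrial) and 0.12 (scaffold), 1 mitochondrial gene was lower, and KARS1 (0.0011), IARS2 (0.056) and NARS2 (0.089) turned upward. With the length and GC correction the medians were -0.50 (cytosolic) and -0.14 (mitochondrial), IARS1 (-0.44) became lower and FARSA (0.30) higher, RARS1 lost its call, and FARSB (-0.023), HARS1 (-0.13), CARS2 (-0.13), EARS2 (-0.0025), HARS2 (-0.021) and LARS2 (-0.0083) turned downward. Without a filter, as with DESeq2, 1 mitochondrial gene was lower. With 10 counts in every library, SARS2 was not tested and the mitochondrial median was -0.061. Upper-quartile factors gave HARS2 -0.0046 and AIMP2 -0.018.

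Without FTO-knockdown replicates 4 and 5, 926 genes were lower and 970 higher, 0 cytosolic genes were higher, and 0 mitochondrial genes were lower or higher. The mitochondrial and scaffold medians were -0.15 and 0.089, and CARS2 (-0.36), HARS2 (-0.16), NARS2 (0.23), EEF1E1 (0.089) and the ratio of SARS1 to SARS2 (0.059) changed sign. Leaving out 1 library gave 1589 to 2928 lower and 1383 to 3826 higher genes, 0 to 1 higher cytosolic genes, 1 to 3 lower and 0 to 1 higher mitochondrial genes, and medians from -0.17 to -0.072 (mitochondrial) and from -0.063 to 0.10 (scaffold). Log2 fold changes that crossed 0 then ran from -0.0085 to 0.13 for FARSB, -0.0015 to 0.069 for HARS1, -0.026 to 0.21 for AARS2, -0.083 to 0.21 for CARS2, -0.040 to 0.20 for EARS2, -0.023 to 0.089 for HARS2, -0.19 to 0.074 for NARS2, -0.095 to 0.10 for AIMP2, -0.30 to 0.015 for EEF1E1 and -0.044 to 0.060 for the ratio of HARS1 to HARS2.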
